A study of Rattus norvegicus with 4 samples.

Results

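The genes described here are 51 components of Wnt signalling, chosen by name for their roles as ligands, receptors, intracellular parts and inhibitors. They were found in the m6A-seq peak lists by the NCBI gene ID that RefSeq pairs with each symbol. Of the 51 genes, 30 had at least 1 listed m6A peak, among 8729 genes with a peak in the whole series. The cells were neonatal rat cardiac fibroblasts (NRCFs), a primary culture from the hearts of Sprague-Dawley pups no more than 3 days old, all labelled as heart tissue. One group received the empty plasmid (Vector, labelled WT) and the other a plasmid carrying rat FTO cDNA (FTO, labelled FTO overexpression), for 48 h in both cases. Each group had 1 m6A-IP library and 1 input library, so the series held 4 libraries in 2 groups, and 1 peak list was deposited for each group. The share of cells that took up the plasmid was not measured in these files. With 1 library pair per group there is no replicate check on any difference below, and no test was made.

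Wnt proteins are secreted, lipid-modified ligands that bind Frizzled receptors together with a co-receptor. In the canonical branch this stops a cytoplasmic complex built on Axin and APC from marking β-catenin for destruction, and β-catenin then acts with TCF/LEF factors in the nucleus. Other branches run through ROR and RYK receptors to the cytoskeleton and calcium, and in the heart Wnt signalling is known for its part in development and in the fibroblast response to injury. m6A is a methyl mark on adenosines of mRNA, FTO is an enzyme that removes it, and an m6A peak is a stretch of RNA that the m6A antibody enriched over the input.

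For each peak the lists give a length in base pairs (bp) and an Ensembl transcript, and the height of a peak was not used here. A gene with more peaks is therefore not shown to carry more m6A, and a scarce transcript, an unmethylated one and a peak under the threshold of the caller cannot be told apart. A longer listed peak is likewise not shown to be a wider stretch of m6A. Whether the listed lengths follow exons was not tested. The sequencing depth is unknown. The Vector list held 21249 peaks and the FTO list 17796, and the transfected gene, Fto, had 3 and 9 peaks. Of 10 fibroblast markers, 5 had a Vector peak and 5 an FTO peak, and 4 of these were listed in both groups. They had 14 Vector peaks and 10 FTO peaks in all. Of the 6 with a peak, 4 had fewer FTO peaks and 1 more, against 41.4% and 21.2% of all genes. Pdgfra had 7 and 6 peaks, Tcf21 1 and 1, Fn1 3 and 1, Thy1 2 and 1, Postn 1 and 0 and Ddr2 0 and 1. Col1a1, Col1a2, Col3a1 and Vim had none, and a marker without a peak is not shown to be absent. Markers of other heart cells were also listed, at 22 and 24 peaks over 6 cardiomyocyte genes, 19 and 16 over 4 genes of smooth muscle cells and pericytes, 12 and 9 over 4 macrophage genes, and 0 and 2 over 4 endothelial genes. Tnnt2 had 4 and 7 peaks, Ryr2 2 and 5, Myh7 8 and 5 and Ptprc 10 and 7. The part of other cell types in the Wnt peaks was not tested.

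The 51 Wnt signalling genes carried 86 Vector peaks and 80 FTO peaks, so the FTO number was 93% of the Vector number, against 83.7% over all genes. Scaled by the ratio of the list sizes, 1.194, the FTO number was 95.5 and thus above the Vector number. Such scaling also removes any fall in peak number that FTO brought about in all genes alike, and the source of the smaller FTO list was not tested. Without the peaks under 200 bp the numbers were 47 and 52. A peak was found in either list for 58.8% of the 51 genes and for 35.4% of the protein-coding genes in RefSeq. The 51 genes were chosen with earlier results of these data known, so the higher share is not a finding about the pathway. Fewer peaks in the FTO list were found for 8 of the 30 genes with peaks (26.7%, where 41.4% of all genes with a peak had fewer). More peaks were found for 9 genes (30%, against 21.2% of all genes) and as many for 13 (43.3%, against 37.4%). The median difference was 0 peaks per gene both for the Wnt genes and over all genes. Dvl1, Tcf7 and Frzb had peaks with Vector alone, which makes 3 genes, where 16.4% of all genes were so listed, and Axin2, Gsk3b, Pygo2 and Sfrp2 had peaks with FTO alone, which makes 4, against 9.57%. The 2 genes Apc and Tcf7l2 had at least 3 peaks fewer in the FTO list, as did 5.97% of all genes, and 0 of the 30 had 3 or more additional peaks, against 1.39%. The peaks of Apc and Tcf7l2 in which the lists differed were all under 200 bp, and Tcf7l2 had no peak of 200 bp or more in either list.

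Wnt genes were also compared with other genes of similar peak number. Among genes with 1 Vector peak, 2 of 12 Wnt genes had none in the FTO list, against 31.5% of all such genes. With 2 to 4 Vector peaks, 3 of 7 Wnt genes had fewer FTO peaks, against 51.9%, and with 5 to 9 peaks 3 of 6, against 65.2%. Lrp5 was the single Wnt gene with 10 or more Vector peaks, and it had 1 peak more in the FTO list, where 81.4% of the 194 genes of that class had fewer.

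**Figure D1:**
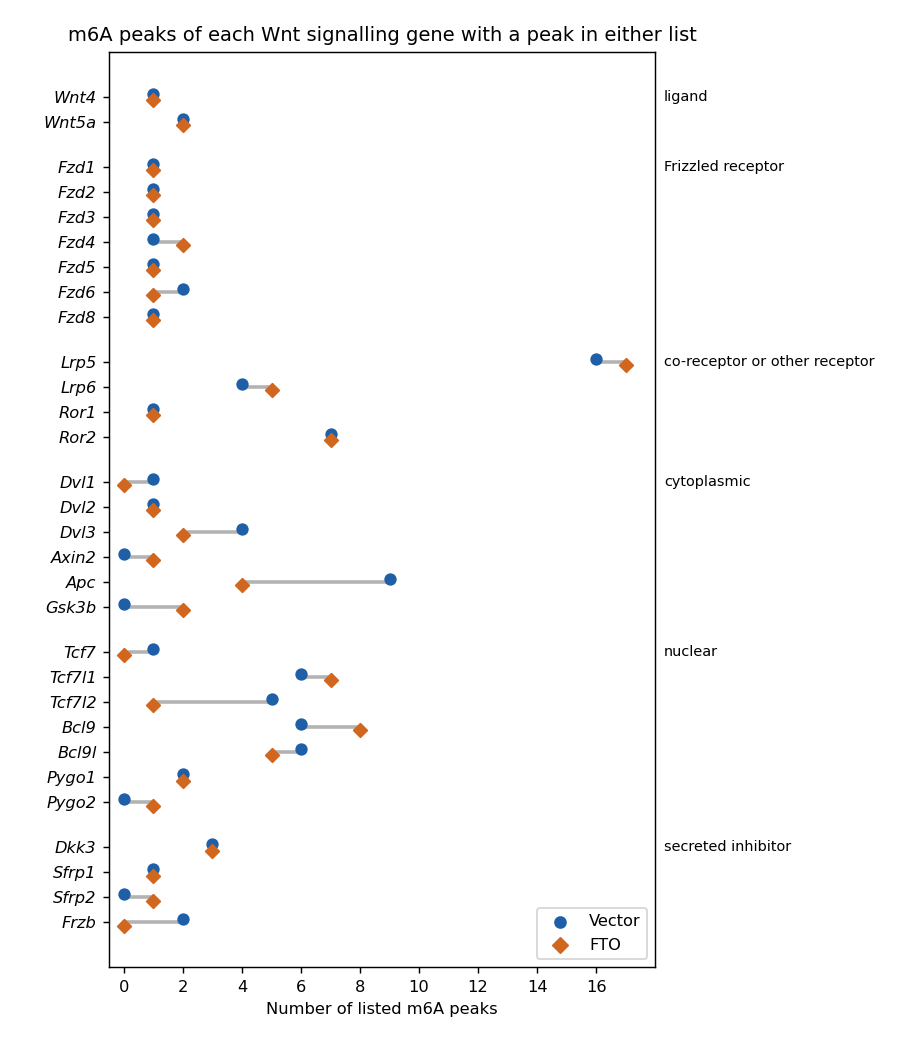
Number of listed m6A peaks (x axis) of the 30 Wnt signalling genes with a peak in either list, ordered by role (y axis). Circles are the Vector list and diamonds the FTO list, with 1 list per group and no error bars. Most pairs of symbols lie within 1 peak of each other, and the long bars are Apc, from 9 to 4, and Tcf7l2, from 5 to 1.

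Ligands were sparsely listed. Only Wnt4 and Wnt5a, of 9 Wnt ligands, had a peak, and both had as many in the FTO list. Wnt5a (gene ID 64566), a ligand best known for β-catenin-independent signalling, had peaks of 222 and 924 bp with Vector and of 222 and 293 bp with FTO. The 222 bp peak was thus common to both lists, and the longer was 3.15 times as long in the Vector list. Wnt5a was the single Wnt gene whose longest peak was at least 3 times as long in the Vector list, as were 3.51% of all genes listed in both groups. Wnt4 (84426) had 1 peak in each list, of 3064 bp with Vector and 2857 bp with FTO. No peak was listed for Wnt2, Wnt2b, Wnt5b, Wnt7b, Wnt9a, Wnt10b or Wnt11, nor for Porcn, the acyltransferase that attaches the lipid to Wnt proteins, or Wls, which carries them to the cell surface.

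Frizzled receptors, the 7-pass membrane proteins that bind Wnt ligands, had 8 peaks in each list on 7 of the 10 genes. The 7 genes were listed in both groups. Fzd1 (58868) had 1 peak of 4399 bp, Fzd2 (64512) 1 of 1911 bp, Fzd5 (317674) 1 of 2152 bp and Fzd8 (364754) 1 of 2985 bp, each with exactly that length in both lists. These long single peaks gave the family a median peak length of 1464.5 bp in the Vector list and 1941.5 bp in the FTO list, against 203 and 228 bp over all genes. The other 3 Frizzled genes differed between the lists. Fzd4 (64558), which also serves as the receptor for norrin, had 1 peak of 464 bp with Vector, and with FTO the same peak and another of 1972 bp. Fzd6 (282581) had peaks of 1018 and 429 bp with Vector and the 429 bp peak alone with FTO. Fzd3 (266715), known for its role in axon guidance and planar polarity, had 1 peak of 449 bp with Vector and 519 bp with FTO. Fzd7, Fzd9 and Fzd10 had no peak in either list.

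Co-receptors and other Wnt receptors carried the most peaks of any role, 28 with Vector and 30 with FTO. Lrp5 (293649) and Lrp6 (312781) are single-pass co-receptors that are phosphorylated when Wnt is bound. Lrp5 had 16 Vector peaks, a number that only 0.418% of the genes with a Vector peak reached or exceeded, and 17 FTO peaks. Of these, 14 were common to both lists, with lengths from 98 to 457 bp, and stood in the same order of peak numbers, the running numbers of the lists. The Vector peaks of 126 and 185 bp had no FTO peak of that length, and the FTO peaks of 237, 192 and 290 bp had no such Vector peak. The 126 bp peak stood between the common peaks of 140 and 210 bp, where the FTO list had the peaks of 237 and 192 bp. Most Lrp5 peaks were thus common to both lists.

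Lrp6 had peaks of 172, 397, 394 and 96 bp in both lists, in that order of peak numbers, and the FTO list had in addition a peak of 1046 bp. Ror2 (306782), a receptor tyrosine kinase-like protein for Wnt5a, had 7 peaks in each list. Of these, 6 had equal lengths, and the other was 2311 bp with Vector and 2304 bp with FTO. Ror1 (362550), its relative, had 1 peak, of 2698 bp with Vector and 2708 bp with FTO. Ryk, another Wnt receptor, had no peak, and neither did Rnf43 and Znrf3, the ubiquitin ligases that remove Frizzled proteins from the surface. All 11 receptor genes with a peak were therefore listed in both groups, as were 74% of all genes with a peak, and 1 of them, Fzd6, had fewer FTO peaks, against 41.4% of all genes. Most of these receptor genes had 1 Vector peak, and among all genes with 1 Vector peak the share with fewer FTO peaks was 31.5%.

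**Figure D2:**
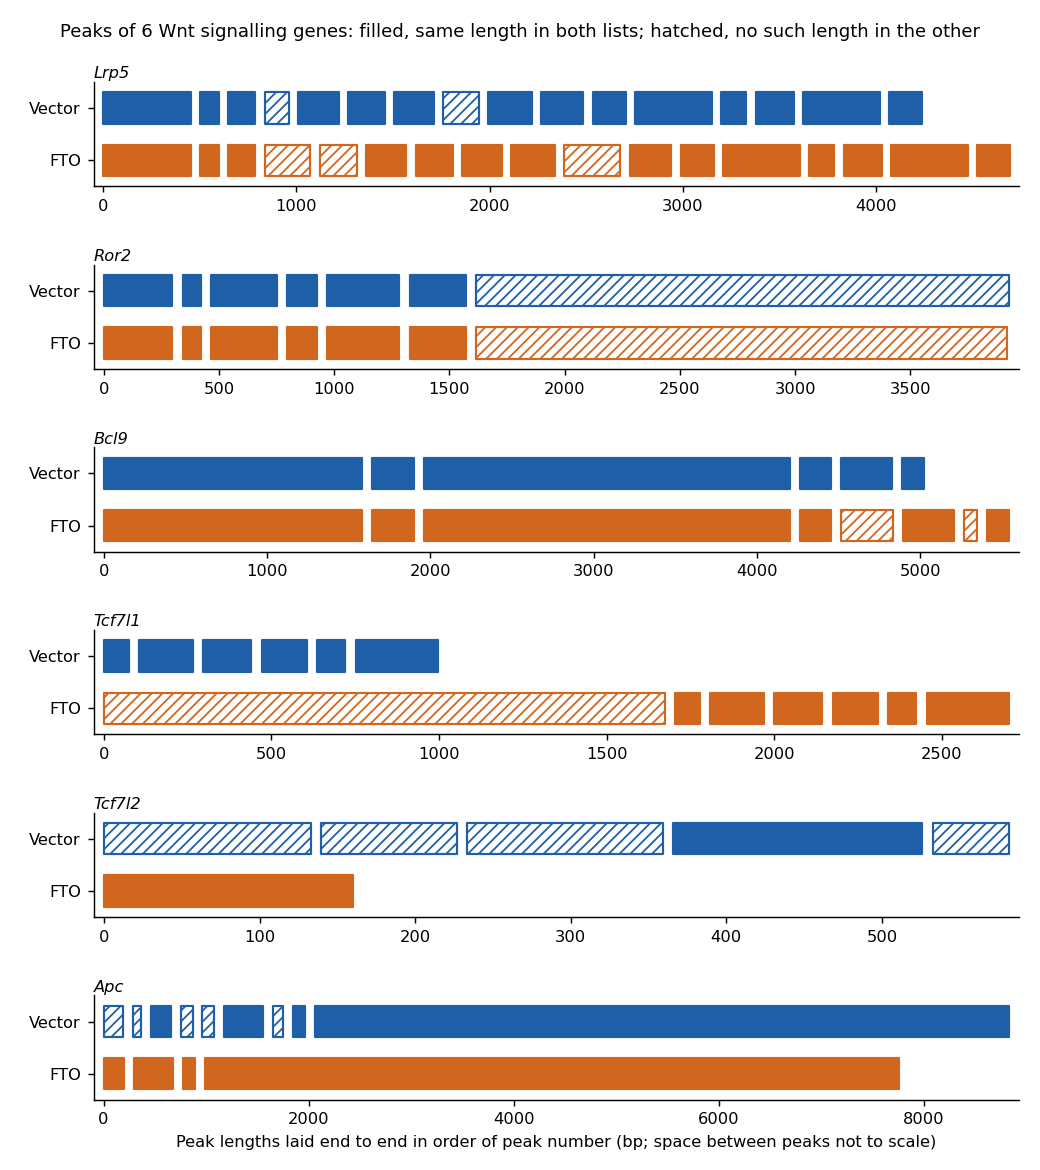
Peaks of 6 Wnt signalling genes, drawn to scale within each gene and laid end to end in the order of their peak numbers (x axis, bp; the space between peaks is not to scale), for the Vector list and the FTO list. Filled bars have a peak of the same length in the other list and hatched bars have none; the filled bars stand in the same order in both lists, and Apc and Tcf7l2 have hatched bars in the Vector list alone.

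Cytoplasmic parts had 15 Vector peaks and 10 FTO peaks on 6 of 8 genes. Apc (24205), the scaffold of the complex that destroys β-catenin, had 9 Vector peaks. In order of peak number they were 188, 82, 199, 109, 114, 379, 96, 117 and 6775 bp long. The FTO list held 4 of these lengths, 199, 379, 117 and 6775 bp, in the same order. The 5 peaks without a partner were all under 200 bp, and the longest peak was the same in both groups. Of the 69 genes with 9 Vector peaks, 8 genes (11.6%), Apc included, had 4 or fewer FTO peaks. The median over all 69 genes was 8 FTO peaks. Without Apc, the cytoplasmic genes had 6 peaks in each list, and with the peaks under 200 bp left out the cytoplasmic genes had 6 Vector peaks and 7 FTO peaks, so that the order of the numbers turned.

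Dishevelled proteins relay the signal from Frizzled to the destruction complex. Dvl3 (303811) had peaks of 2733, 136, 70 and 232 bp with Vector and of 2767 and 232 bp with FTO. Dvl1 (83721) had 1 Vector peak of 207 bp and no FTO peak, and Dvl2 (303251) had 1 peak of 228 bp in both lists. The Dishevelled genes together thus had 6 and 3 peaks, with fewer in the FTO list for 2 of 3 genes, against 41.4% of all genes. The Dvl3 peaks of 136 and 70 bp were among the Vector peaks without an FTO peak of that length. Axin2 (29134), a scaffold and a widely used readout of β-catenin activity, was listed with 1 peak of 810 bp in the FTO group alone. Gsk3b (84027), a kinase of the complex, had no Vector peak and FTO peaks of 99 and 658 bp, which the list places on 2 transcripts. Of the 1585 genes with 2 FTO peaks, 6.31% had no Vector peak. Axin1 and Ctnnb1, the gene of β-catenin, had no peak in either list.

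Nuclear parts had 26 Vector peaks and 24 FTO peaks on 7 of 8 genes. Fewer FTO peaks were found for 3 of the 7 genes and more for 3, against 41.4% and 21.2% of all genes. Scaled by the ratio of the list sizes, the FTO number was 28.7, above the Vector number. With the peaks under 200 bp left out, the nuclear parts had 11 Vector peaks and 13 FTO peaks. The TCF factors differed among themselves. Tcf7l2 (679869) had Vector peaks of 133, 87, 126, 160 and 49 bp, and of these only the 160 bp peak was in the FTO list. Among the 387 genes with 5 Vector peaks, 9.30% had 1 FTO peak or none, and the median was 4. Tcf7l1 (312451), mostly a repressor of Wnt targets, had 6 Vector peaks of 76, 160, 144, 136, 84 and 246 bp, and all 6 were in the FTO list with the same length and order. The FTO list also had a peak of 1673 bp, so that the longest peak was 6.80 times as long as with Vector. Fzd4, at 4.25 times, and Tcf7l1 were the 2 genes of 23 whose longest peak was at least 3 times as long in the FTO list, as were 2.96% of all genes in both lists. Tcf7 (363595) had 1 Vector peak of 243 bp and no FTO peak, and Lef1 had none in either list.

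Bcl9, Bcl9l, Pygo1 and Pygo2 encode co-activators that join β-catenin to the transcription machinery, and they had 14 Vector peaks and 16 FTO peaks. Bcl9 (310704) had 6 Vector peaks, from 134 to 2239 bp, which were all in the FTO list, beside additional peaks of 317 and 80 bp. Bcl9l (300673) had 6 Vector peaks, from 57 to 1672 bp, and the FTO list lacked the shortest. Pygo1 (691857) had a 273 bp peak in both lists and a second peak of 1690 bp with Vector and 3090 bp with FTO. Pygo2 (295251) had no Vector peak and 1 FTO peak of 2622 bp. The longest Bcl9 and Bcl9l peaks were thus equal in both groups, and those of Pygo1 and Pygo2 were longer or present only with FTO.

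Secreted inhibitors, which bind Wnt ligands or block the co-receptors, had 6 Vector peaks and 5 FTO peaks on 4 of 7 genes. Frzb (295691), a Frizzled-related protein that sequesters Wnt, had Vector peaks of 205 and 741 bp and no FTO peak. Of the 1738 genes with 2 Vector peaks, 14.1% had no FTO peak. Sfrp2 (310552), of the same family, was listed the other way, with no Vector peak and 1 FTO peak of 589 bp. Sfrp1 (84402) had 1 peak of 544 bp in both lists. Dkk3 (171548), a divergent Dickkopf, had peaks of 84, 138 and 236 bp in both. Dkk1 and Dkk2, the Dickkopf proteins that bind LRP5 and LRP6, and Sfrp4 had no peak.

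A Vector peak and an FTO peak of equal length on the same gene were taken as 1 pair, each peak being used once. This gave 60 pairs for the Wnt genes, and all 60 kept their order of peak numbers within the gene, as did 99.9% of the pairs over all genes. Of the 86 Vector peaks, 26 had no FTO partner, which is 30.2% (95% Wilson interval 21.5% to 40.6%), against 42.7% over all genes. Of the 80 FTO peaks, 20 had no Vector partner, which is 25% (16.8% to 35.5%), against 31.6%. The intervals cover counting error only and peaks of 1 gene share a transcript, so they are no test of a difference. By role, 6 of 36 Vector peaks of the receptors had no partner (16.7%, interval 7.87% to 31.9%) and 16 of 41 of the intracellular parts (39%, 25.7% to 54.3%). The intracellular number divides into 9 of 15 for the cytoplasmic parts (60%, 35.7% to 80.2%), 5 of these on Apc, and 7 of 26 for the nuclear parts (26.9%, 13.7% to 46.1%). For the receptors, 24 of the 28 Vector peaks of the co-receptor group were paired, 14 of them on Lrp5, and without Lrp5 10 of 12 were paired. The lists had identical sets of lengths for 7 of the 23 Wnt genes listed in both (30.4%, against 28.4% of all genes in both), namely Fzd1, Fzd2, Fzd5, Fzd8, Dvl2, Dkk3 and Sfrp1.

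**Figure D3:**
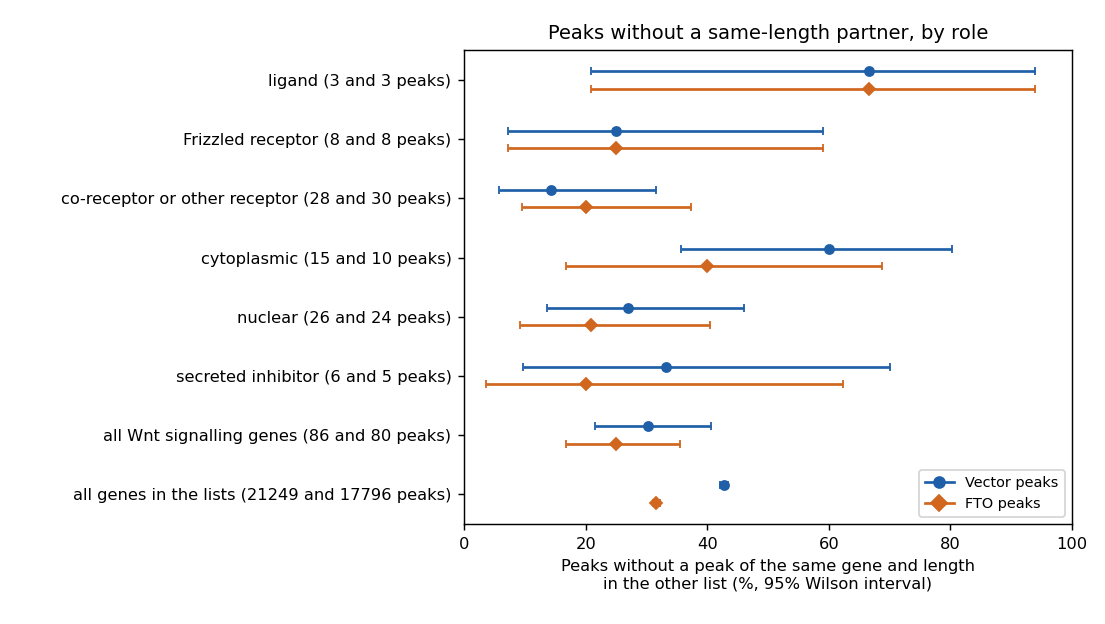
Share of peaks without a peak of the same gene and length in the other list (x axis, percent, with 95% Wilson intervals for counting error) for the Vector peaks (circles) and FTO peaks (diamonds) of each role, of all Wnt signalling genes and of all genes (y axis, with the number of peaks). The co-receptor group has the lowest Vector share, 14.3%, and among the roles with more than 10 Vector peaks the cytoplasmic parts have the highest, 60%; most of the intervals overlap.

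The length of the peaks was compared next. The median Wnt peak was 213.5 bp in the Vector list and 267 bp in the FTO list, beside 203 and 228 bp over all genes, and the summed length was 53901 and 61183 bp. Peaks under 100 bp made up 14.0% of the Wnt Vector peaks and 10% of the FTO peaks, against 12.8% and 10.8% over all genes. Peaks of 1000 bp or more made up 16.3% and 21.2%, against 14.2% and 16.7%. The longest peak of a gene was equal in both lists for 12 of the 23 genes (52.2%, against 60.6% of all genes), shorter in the FTO list for 4 (17.4%, against 19.2%) and longer for 7 (30.4%, against 20.2%). The 4 with a shorter longest peak were Wnt4, Wnt5a, Fzd6 and Ror2. The 7 with a longer one were Fzd3, Fzd4, Lrp6, Ror1, Dvl3, Tcf7l1 and Pygo1, and for Ror1 and Dvl3 the difference was 10 and 34 bp.

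**Figure D4:**
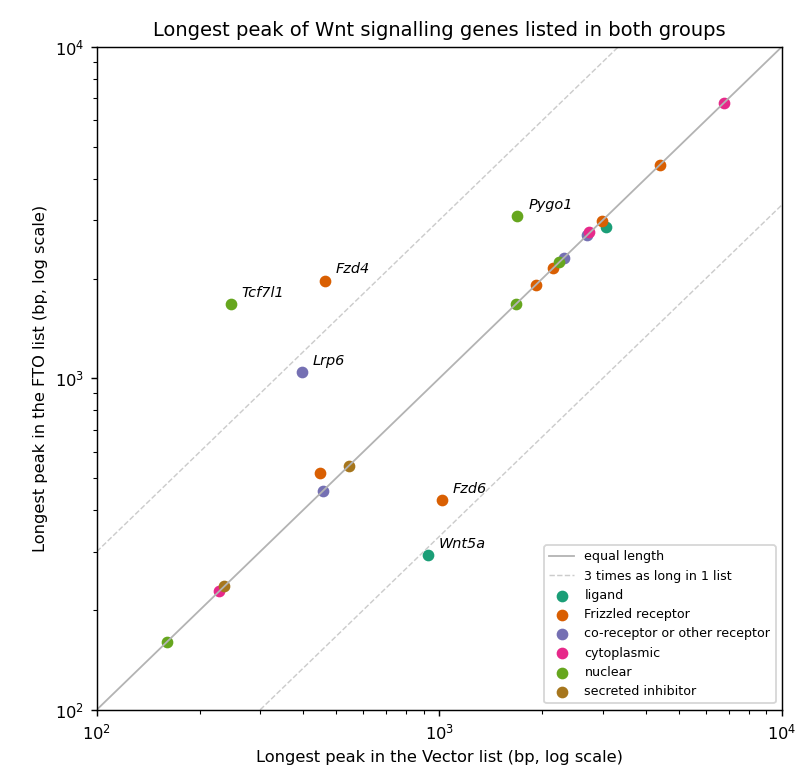
Longest peak in the FTO list (y axis, bp, log scale) against the longest peak in the Vector list (x axis, bp, log scale) for the 23 Wnt signalling genes listed in both groups, coloured by role. The solid line marks equal length and the dashed lines a ratio of 3; 12 genes lie on the solid line, Tcf7l1 and Fzd4 above the upper dashed line and Wnt5a below the lower one.

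The peaks without a partner differed in length between the lists. The 26 Vector peaks of this kind had a median of 186.5 bp, from 49 to 3064 bp, close to the 191 bp of all unpaired Vector peaks. The 20 FTO peaks had a median of 734 bp, from 80 to 3090 bp, where all unpaired FTO peaks had 294 bp. A length of 500 bp or more (the limit was set with the lengths in view) was reached by 8 of the 26 Vector peaks (30.8%, against 27.2% over all genes) and by 13 of the 20 FTO peaks (65%, against 39%). Of the long FTO peaks, those of Wnt4, Fzd3, Ror1, Ror2, Dvl3 and Pygo1 had in their place in the order of peak numbers a Vector peak of another length, while those of Fzd4, Lrp6, Axin2, Gsk3b, Tcf7l1, Pygo2 and Sfrp2 came in addition to the Vector peaks of the gene or on a gene with none. The paired Wnt peaks had a median of 227.5 bp.

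**Figure D5:**
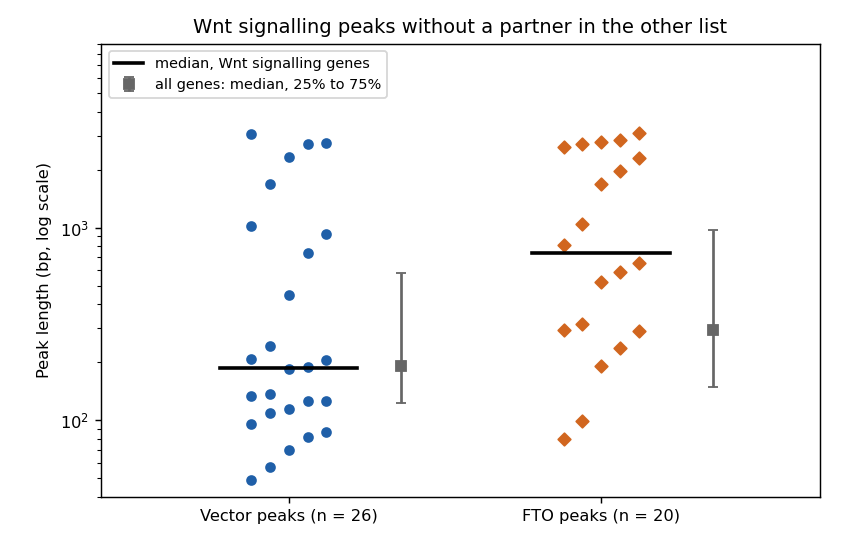
Length (y axis, bp, log scale) of the 26 Vector peaks and 20 FTO peaks of Wnt signalling genes without a partner of the same length in the other list. Each symbol is a peak, black lines are the medians, 186.5 and 734 bp, and grey squares with bars are the median and the middle 50% of all unpaired peaks of that list.

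Other genes of the pathway were taken from a written list of 83, of which 81 matched a RefSeq symbol and 48 had a peak. They had 142 Vector peaks and 126 FTO peaks, with fewer FTO peaks for 20 of the 48 genes, as many for 17 and more for 11, where 41.4%, 37.4% and 21.2% of all genes were so listed, and the FTO number scaled by the ratio of the list sizes was 150. Without an FTO partner were 54 of the 142 (38%, 95% Wilson interval 30.5% to 46.2%), against 42.7% over all genes. The planar polarity and calcium branches had 57 and 42 peaks, with fewer FTO peaks for 9 of 15 genes (against 41.4% of all genes) and more for 1, Camk2d, at 0 and 1 (against 21.2%). Daam2, a formin, had 8 Vector peaks and 5 FTO peaks and was the single gene of the list that differed by 3 or more. Regulators of the destruction complex had 29 and 28 peaks and nuclear cofactors 39 and 37. Known target genes of the pathway had 11 and 12 peaks, and secreted and membrane proteins outside the 51 genes 6 and 7.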

How the data were processed

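m6A-seq was analysed for 4 libraries, 1 m6A-IP and 1 input in each of the Vector and FTO groups, which were taken from the labels. The authors deposited 1 list per group with the length in bp of each peak, which is not normalized, a peak name with the prefix MACS, a transcript and, for most peaks, a gene ID. Submitters' processing notes name cutadapt 1.9.3, HISAT2 2.0.4 and the build rn6. Caller settings and threshold are not given in the sources used here, so how weak peaks were removed is unknown. The listed peak numbers have gaps, and 248 Vector and 213 FTO peaks have no gene ID. No depth was used, and no per-sample columns were left aside.

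Symbols were matched to gene IDs with RefSeq of GRCr8, used for names and gene order only; Krm1 and Krm2 of the list of other pathway genes matched no symbol and were left out. Along each of 21 chromosomes the peak numbers followed the order of the genes, with a median Spearman correlation of 0.991 in the Vector list, and they were used to order the peaks of a gene. That order was not checked within genes and takes no account of strand. Peaks were paired 1 to 1 by gene and length. The pairing code was tested on simulated lists, which does not show that peaks of equal length in the deposited lists are the same peak. The members and the lists of other genes were chosen with earlier results of these data known. Peak numbers were to be given for every member with a peak, and every length where the number differed by 3 or more, where 2 or more peaks stood in 1 list alone or where the longest peak differed 3 times. Further lengths were added after the values were seen. No p-values were computed. The work was done with scipy 1.17.1, pandas 2.3.3 and numpy 2.4.6 under Python 3.11.15, and the plots with matplotlib 3.10.9. Shares have 95% Wilson intervals. Other minimum lengths, pairing rules, list scaling and length summaries were tried as alternatives.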

Additional observations from a re-analysis of the deposited data

How the results depend on the processing

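Of 124 values under alternatives, 95 stayed within 1.5 times the count or median, or within the interval of the share. Keeping peaks of at least 200 bp left 47 Vector and 52 FTO peaks on the Wnt genes, so the order of the totals turned, with fewer FTO peaks for 4 genes. The numbers were then 15 and 18 for the co-receptor group and 4 and 3 for the secreted inhibitors. They were 11 and 13 for the nuclear parts and 6 and 7 for the cytoplasmic parts, and the order of both thus turned. The medians were 397 and 413 bp. Apc then had as many peaks in both lists (a difference of 0) and Tcf7l2 had none in either, and with peaks of at least 100 bp the differences were -3 and -2. Other pathway genes had 70 and 69 peaks of at least 200 bp, with fewer FTO peaks for 8. FTO counts scaled by 1.194, the ratio of the list sizes, gave more FTO peaks for 22 Wnt genes and 29 other pathway genes. Equal counts above 0 then count as more in any gene. Where every peak of a gene could serve as partner, 19.8% of the Wnt Vector peaks had none. By summed length 8 genes were longer with FTO and 8 shorter, where the longest peak gave 7 and 4. By median length 11 were longer and 3 shorter, and by at least 10% of the longest peak 5 were longer and 2 shorter. Unpaired FTO peaks had a median of 734 bp. Without genes of a single peak, chosen after the data were seen, 1 gene was listed in each group alone. The share over all genes was not computed for these counts of genes, so none is a result about the Wnt genes. Each gene and length counted once left every count within 1.5 times. No replicate could be left out. No paired analysis was possible because a single m6A-IP library and a single input library stand behind each list. Peak numbers cannot be set against depth, which is unknown. The cause of these differences was not tested.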

Other observations

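Related genes shared some peak lengths. Lrp5 and Lrp6 both had peaks of 172 and 397 bp with Vector and with FTO, and Lrp5 had 2 peaks of 397 bp in each list. Tcf7l1 and Tcf7l2 both had a peak of 160 bp in each list, which was the one Tcf7l2 peak listed with FTO. No length was shared between the Frizzled genes, between Ror1 and Ror2, between the Dishevelled genes or among Bcl9, Bcl9l, Pygo1 and Pygo2 in either list. These are equal lengths, and whether they mark corresponding exons was not tested.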
